A study of Mus musculus with 3 samples.

Results

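Osteocalcin-rich cells of adult bone marrow (BM) were the cells of 1 targeted single-cell RNA-seq library in which the osteocalcin genes Bglap, Bglap2 and Bglap3 together made up at least 20% of the molecules. A member also had at least 100 molecules, no molecule of Ptprc, the gene of the leukocyte antigen CD45, less than 15% Cxcl12 and less than 30% Col2a1 plus Acan. The rule found 328 of the 7948 adult cells and 328 of the 24875 cells of the whole series. It used the measured values of these 7 targets, so their levels in the members are given as a description, and the comparisons below rest on the other targets of the panel.

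A custom panel of Wnt pathway genes and cell type markers was measured in 3 libraries, 1 per group, all from WT C57/B6 mice with no treatment named. Adult BM cells and E18.5 BM cells were marrow cells left after lineage-positive cells had been removed with antibody-coated beads, and E18.5 EC were endothelial cells sorted from embryonic marrow. For adult marrow the study's methods describe further depletion steps, CD45 among their targets, that they do not describe for fetal marrow. Whether the targeted adult library had these steps is not stated. The age of the adult mice is not given in the sources used here, several animals were pooled in each library, and the gate of the sort is given as CD31 with endomucin in one source and as CD31 alone in another. Cells of 1 library are not replicates, so no difference was tested: the 95% intervals given cover error in counting molecules or cells, and leave out the variation between cells and animals.

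Osteoblasts are the cells that lay down bone. They secrete a collagen matrix, raise local phosphate with the alkaline phosphatase Alpl and, as they mature, secrete osteocalcin, a small protein that binds the mineral. They carry Pth1r, the receptor of parathyroid hormone, and Wnt signalling through frizzled receptors and LRP co-receptors is a known driver of their formation, which secreted inhibitors such as Dkk1 restrain. In the mouse, osteocalcin and its relatives are encoded by a cluster of neighbouring genes.

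The 3 copies lie on the minus strand of chromosome 3 of GRCm38, the build named in the labels as mm10. In the GENCODE annotation the Bglap transcript covers chr3:88383501-88384433, that of Bglap2 covers chr3:88377736-88378699 and that of Bglap3 covers chr3:88368622-88369831, each with 4 exons. Their coding sequences are shown because the members were chosen on them and because their likeness bears on how far the copies can be counted apart. Each runs 5′ to 3′ over 288 bases, and capitals mark the 13 positions at which the copies differ.
Bglap: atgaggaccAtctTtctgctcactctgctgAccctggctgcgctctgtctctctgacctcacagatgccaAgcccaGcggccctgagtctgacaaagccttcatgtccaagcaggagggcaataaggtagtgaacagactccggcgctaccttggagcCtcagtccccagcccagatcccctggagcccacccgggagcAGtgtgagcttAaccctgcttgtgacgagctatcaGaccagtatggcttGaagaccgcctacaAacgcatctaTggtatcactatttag
Bglap2: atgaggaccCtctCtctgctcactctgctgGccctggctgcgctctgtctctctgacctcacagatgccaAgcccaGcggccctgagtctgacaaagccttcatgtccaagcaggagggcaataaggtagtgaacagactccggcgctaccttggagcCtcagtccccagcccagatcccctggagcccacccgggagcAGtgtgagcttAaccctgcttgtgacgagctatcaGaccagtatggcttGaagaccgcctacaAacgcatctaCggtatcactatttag
Bglap3: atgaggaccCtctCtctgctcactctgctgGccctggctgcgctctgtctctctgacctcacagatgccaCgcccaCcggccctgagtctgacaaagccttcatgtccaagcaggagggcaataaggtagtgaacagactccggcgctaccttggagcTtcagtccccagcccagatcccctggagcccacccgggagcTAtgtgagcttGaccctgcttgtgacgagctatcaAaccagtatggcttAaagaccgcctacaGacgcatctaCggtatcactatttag
Bglap and Bglap2 differed at 4 coding positions, an identity of 98.6%, and were identical over the 134 bases after the stop codon. Bglap3 differed from Bglap at 13 coding positions and from Bglap2 at 9, with 2 differences from each after the stop codon. Copies this alike can share reads, so the split between them is uncertain and they were summed for the rule.

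In the members osteocalcin took up most of what the panel captured. The lowest share was 20.05%, the median 90.8% and the highest 97.6% of a cell's molecules, and 262 of the 328 members were at 80% or more. Members were deep cells, with a median of 5221 molecules and a range from 101 to 18813. The other 4981 adult cells that had no Ptprc and at least 100 molecules had a median of 369, and the 377 of them rich in cartilage genes one of 4077. They were 4.13% of the adult cells (exact binomial interval 3.70 to 4.59) and held 28.6% of the library's molecules and 92.7% of its osteocalcin molecules. The median member held 1285.5 molecules of Bglap, 1451 of Bglap2 and 1821.5 of Bglap3. Cxcl12, Col2a1 and Acan, which the rule capped, had medians of 1, 10.5 and 0 molecules.

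**Figure D1:**
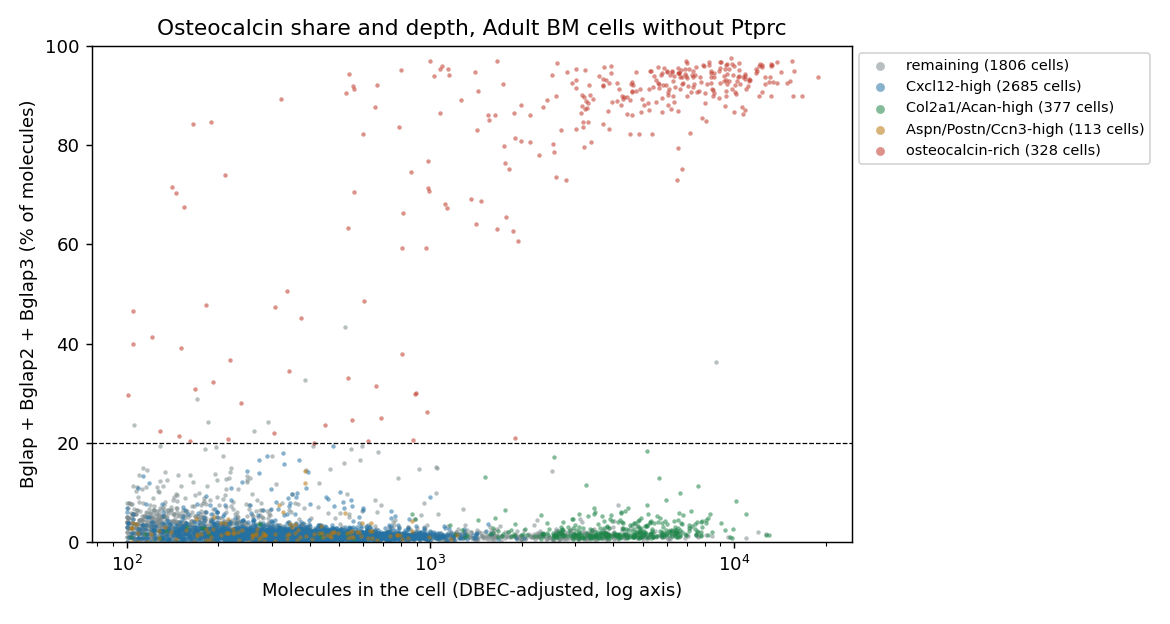
Molecules of all targets per cell on a log axis against the percentage that were Bglap, Bglap2 or Bglap3, with 1 point for each Adult BM cell without Ptprc and with at least 100 molecules, coloured by the set it was put in. The 328 osteocalcin-rich cells form a group near 90% at high depth and a thin tail of 32 cells under 50%, and the 8 other cells above the dashed line at 20% were over the caps on Cxcl12 or on Col2a1 plus Acan.

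The osteocalcin floor cut through few cells, whereas the limit on Ptprc depended on the counting. With RSEC-adjusted or raw molecules 249 of the 328 members (75.9%) had a molecule of Ptprc, with a median of 2, and the rule then found 122 or 94 members. With DBEC-adjusted molecules the library held 388 cells with at least 20% osteocalcin. Of these, 31 had under 100 molecules, 21 had Ptprc (median 227 molecules), 7 were over the cap on Cxcl12 and 1 was over that on Col2a1 plus Acan. The 11 members between 20 and 25% osteocalcin had from 129 to 1901 molecules. Pooled, so that deep cells weigh most, their molecules of targets outside the rule were 6.79% Car3, 24.6% Spp1 and 0.523% Mgp. The 22 cells between 15 and 20%, just outside, had from 113 to 5148 molecules. Pooled in the same way, they had 2.61% Car3, 7.96% Spp1 and 14.8% Mgp, and 28.2% of all their molecules were Col2a1.

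Outside the members osteocalcin, summed over its copies, was present in nearly every cell at a low level. It was found in 98.2% of the other cells, at a median of 1.61% of molecules, and in 99.7% of the 795 adult cells with Ptprc and at least 100 molecules (median 150 molecules), at a median of 3.98%. Most blood cells are not known to make osteocalcin, so its presence alone did not mark a cell. The source of these molecules was not tested. With DBEC-adjusted molecules their split between the copies differed from that of the members. Bglap3 was 77.2% of the osteocalcin molecules of the other cells and 37.2% of those of the members, which had 30.1% Bglap and 32.7% Bglap2. Of the 7948 adult cells, 7646 had a molecule of Bglap3, 2031 one of Bglap and 2213 one of Bglap2. The presence in nearly every cell therefore rested on Bglap3.

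The split depended on an error correction step. The deposited molecules were counted raw, after a correction for substitution errors in the identifiers (RSEC) and after a further distribution-based one (DBEC), which removes molecules supported by few reads. With RSEC-adjusted molecules Bglap3 was 26.4% of osteocalcin in the members and 22.5% in the other cells, and between 20.9 and 23.3% in each set of other cells, those with Ptprc included. Of the 92 targets with at least 1000 RSEC-adjusted molecules in the adult library, Bglap3 was the 1 from which DBEC removed none. Leaving Bglap3 out of the sum kept 301 members.

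**Figure D2:**
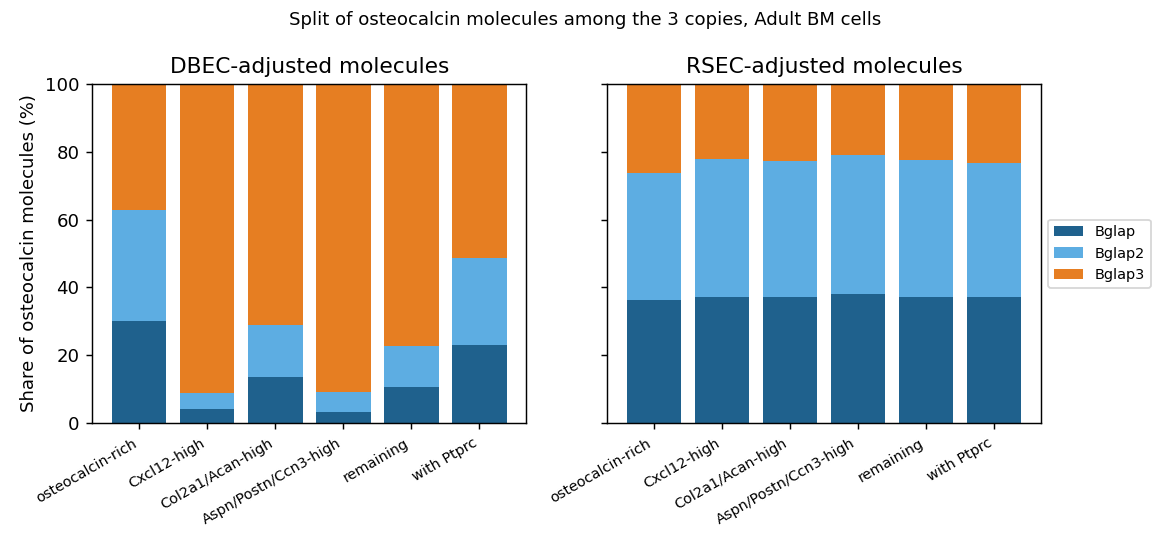
Stacked bars of the percentage of osteocalcin molecules counted as Bglap, Bglap2 and Bglap3 in 6 sets of adult cells, with DBEC-adjusted molecules on the left and RSEC-adjusted ones on the right. On the left Bglap3 is 37.2% in osteocalcin-rich cells and 91.1% in Cxcl12-high cells, and on the right it lies between 20.9 and 26.4% in every set.

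Because osteocalcin crowds out other targets, the level of a target is given as its DBEC-adjusted molecules per 10000 molecules of targets the rule did not use. Members had a median of 395 such molecules and the other cells 183. Levels compare cells for 1 target, and not targets with each other, since each target has its own primers. A target was compared where members and other cells together had at least 50 molecules. Of 98 targets compared, 14 (14.3%) were at least 2-fold higher in the members, 56 (57.1%) were at least 2-fold lower, and the median ratio was 0.260. Both counts depended on the counting. Car3 alone held 31.5% of the members' molecules outside the rule, and with Car3 also left out of the denominator 28 targets (28.6%) were higher and 52 (53.1%) lower. With all molecules as the denominator 4 (4.08%) were higher and 92 (93.9%) lower. In the same cells counted with RSEC-adjusted molecules, 13 of 104 targets were higher and 6 were lower, and 7 of the 14 higher targets and 5 of the 56 lower ones were called again. Most of the lower calls therefore hold for DBEC-adjusted molecules only.

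Car3, which encodes a cytosolic carbonic anhydrase, had the most molecules in the members outside the rule and the highest ratio after Dkk1. A member had a median of 120 Car3 molecules (range 0 to 560), and 97.6% of members had at least 1. Its level was 3147 (interval 3118 to 3177) in the members and 11.6 (11.1 to 12.04) in the other cells, a ratio of 272 (261 to 283). After each cell was thinned to 50 molecules of targets outside the rule, Car3 was found in 94.5% of 310 members, 3.14% of 4898 other cells and 10.7% of cells with Ptprc, and 18 members were too shallow to thin. With RSEC-adjusted molecules of the same cells the ratio was 24.5 (24.1 to 24.97).

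Col22a1 and Sgms2, with fewer molecules, were also higher in the members. Col22a1, which encodes a fibril-associated collagen chain, had a median of 18 molecules in a member (0 to 91) and a level of 502 against 23.0, a ratio of 21.8 (21.1 to 22.6). Sgms2, a sphingomyelin synthase of the plasma membrane, had a median of 8 molecules (0 to 61) and a level of 253 against 15.1, a ratio of 16.8. Thinned, Col22a1 was found in 83.9% of members and 2.02% of other cells, and Sgms2 in 58.1 and 2.90%. With RSEC-adjusted molecules the ratios were 6.25 and 5.25. The targets Car3, Alpl, Pth1r, Col22a1 and Sgms2 were found together in 279 members (85.1%) and in 26 other cells (0.522%), without thinning. Car3, Col22a1 and Sgms2 had some of the highest ratios of this same comparison, and members held more molecules per cell. The joint count is therefore a description only.

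**Figure D3:**
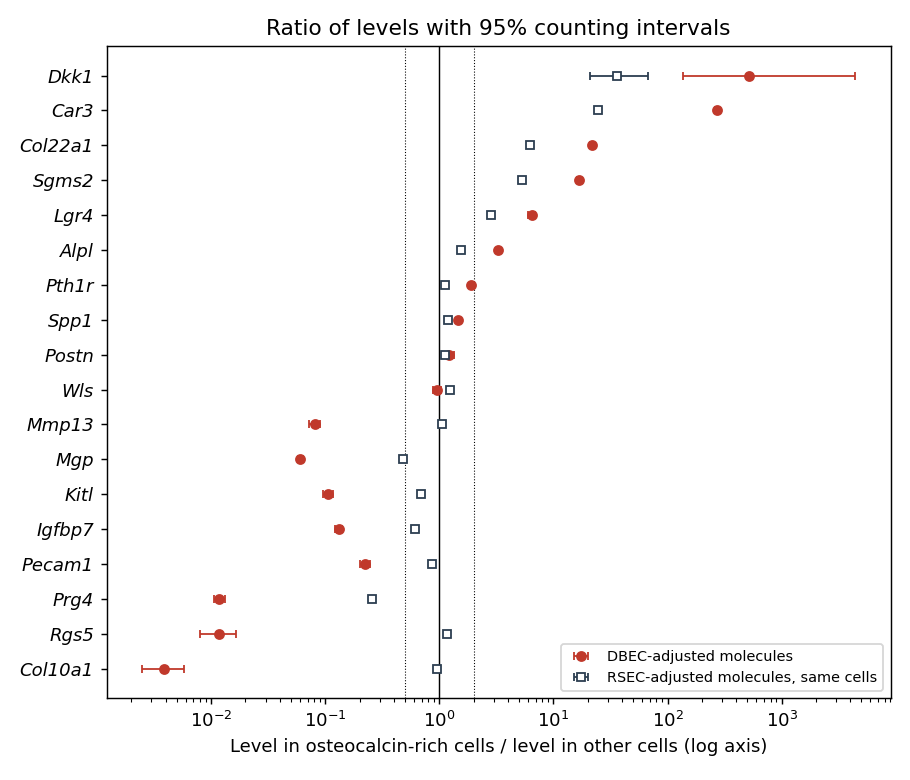
Ratio of the level in osteocalcin-rich cells to that in the other adult cells without Ptprc, on a log axis, for 18 targets, with 95% counting intervals. Filled circles are DBEC-adjusted molecules and open squares RSEC-adjusted molecules of the same cells, and dotted lines mark 2-fold. Dkk1, Car3, Col22a1, Sgms2 and Lgr4 lie right of the upper line in both, while Mmp13 is at 0.0808 in one and 1.06 in the other.

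The markers of the label gave a mixed answer. The bone matrix, mineral and osteoblast receptor list had 16 genes, of which 5 gave molecules in the adult library: Car3, Alpl, Pth1r, Spp1 and Mmp13. Of these 5, 2 were higher in the members, 1 was lower and 2 were within 2-fold, with a median ratio of 1.89 against 0.260 over all targets compared. With RSEC-adjusted molecules of the same cells 1 of the 5 was higher and 0 were lower. The median ratio was then 1.19, against 1.16 over all targets compared. Car3 was put on this list with earlier results of these data known. The collagen type I genes, Runx2, Sp7 and the osteocyte genes of that list were not analysed here, so the members could not be placed along the path from osteoblast to osteocyte.

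Alpl, the alkaline phosphatase that frees phosphate for mineral, had a median of 24 molecules in a member (0 to 171). Its level was 776 (761 to 791) in the members and 237 in the other cells, a ratio of 3.27 (3.20 to 3.34), and thinned it was found in 86.1% of members and 20.2% of other cells. With RSEC-adjusted molecules the ratio was 1.55, under 2-fold. Pth1r had a median of 20 molecules (0 to 90) and a level of 537 against 285, a ratio of 1.89 (1.84 to 1.93), and was found in 85.8 and 33.2% of thinned cells. With RSEC-adjusted molecules its ratio was 1.11. Smpd3, a sphingomyelinase known for its need in bone mineralization and chosen after its values were seen, had 98 molecules in the members and a ratio of 1.60 (1.29 to 1.97), or 0.978 with RSEC-adjusted molecules.

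Spp1, the gene of the matrix protein osteopontin, varied widely among the members. It was at 0 in 118 of them, had a median of 2 molecules and reached 710, and in 77 members it was at least 10% of the molecules outside the rule. Its level was 1041 against 708, a ratio of 1.47 (1.44 to 1.495). Thinned, it was found in 43.9% of members and 48.6% of other cells, which runs against the level, so no order is read from it. The 118 members without Spp1 had a median of 3905.5 molecules and the 210 with it 5605.5. With Spp1 taken out of the denominator, Car3 was at 3783 in the first and 3396 in the second, Alpl at 872 and 863, and Pth1r at 527 and 632.

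Across members, targets were compared by their shares of the molecules outside the rule with the pair itself left out. Spearman's rho was 0.562 for Pth1r with Col22a1 (308 cells), 0.498 for Car3 with Sgms2, 0.479 for Col22a1 with Lgr4 and -0.237 for Car3 with Spp1 (305 cells). The cells share 1 library and the counts share depth, and rho between Car3 and Sgms2 was 0.262 when the pair stayed in the denominator. These values describe the cells and were not tested.

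The other adult cells were also split by single targets, and the members differed from each set in another way. All comparisons with single sets were made with DBEC-adjusted molecules only. The 2685 Cxcl12-high cells had at least 15% Cxcl12, the chemokine of reticular stroma. Against them 13 of 89 targets (14.6%) were at least 2-fold higher in the members and 40 (44.9%) lower. Alpl was 7.62-fold (7.36 to 7.88) and Pth1r 4.85-fold higher in the members, and Spp1 was at 1041 in the members and 1271 in these cells. The stem cell factor gene Kitl, at 26.2 against 1029, and the leptin receptor gene Lepr, at 4.13 against 202, had low levels in the members. Counted with RSEC-adjusted molecules, against all other cells, the ratios were 0.693 for Kitl, 0.783 for Lepr, 1.55 for Alpl and 1.11 for Pth1r. All 4 were within 2-fold there.

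The 377 Col2a1- and Acan-high cells also held Alpl and Pth1r. Against them 41 of 81 targets (50.6%) were higher in the members and 24 (29.6%) lower. Alpl was at 835 in these cells, a ratio of 0.929 (0.910 to 0.9496) for the members, but thinned it was found in 86.1% of members and 67.7% of these cells, so no order is read. Pth1r was at 1101, a ratio of 0.488 (0.476 to 0.5003), and was found in 85.8 and 92.5% of thinned cells. Car3 parted the sets, with 10 molecules in the cartilage-gene cells, a level of 0.20 against 3147. Sgms2 was 4.58-fold (4.35 to 4.82) and Spp1 2.84-fold higher in the members.

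Against the 113 cells with at least 20% Aspn, Postn and Ccn3, which were the matricellular set, 25 of 67 targets (37.3%) were higher in the members and 24 (35.8%) lower. Alpl had 6 molecules in these cells and Car3 5. Postn, a matricellular protein gene used to choose that set, was at 36.9 in the members and 438 there. Lgr4 was 2.59-fold (2.13 to 3.19) higher in the members, its smallest ratio among the 4 sets.

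**Figure D4:**
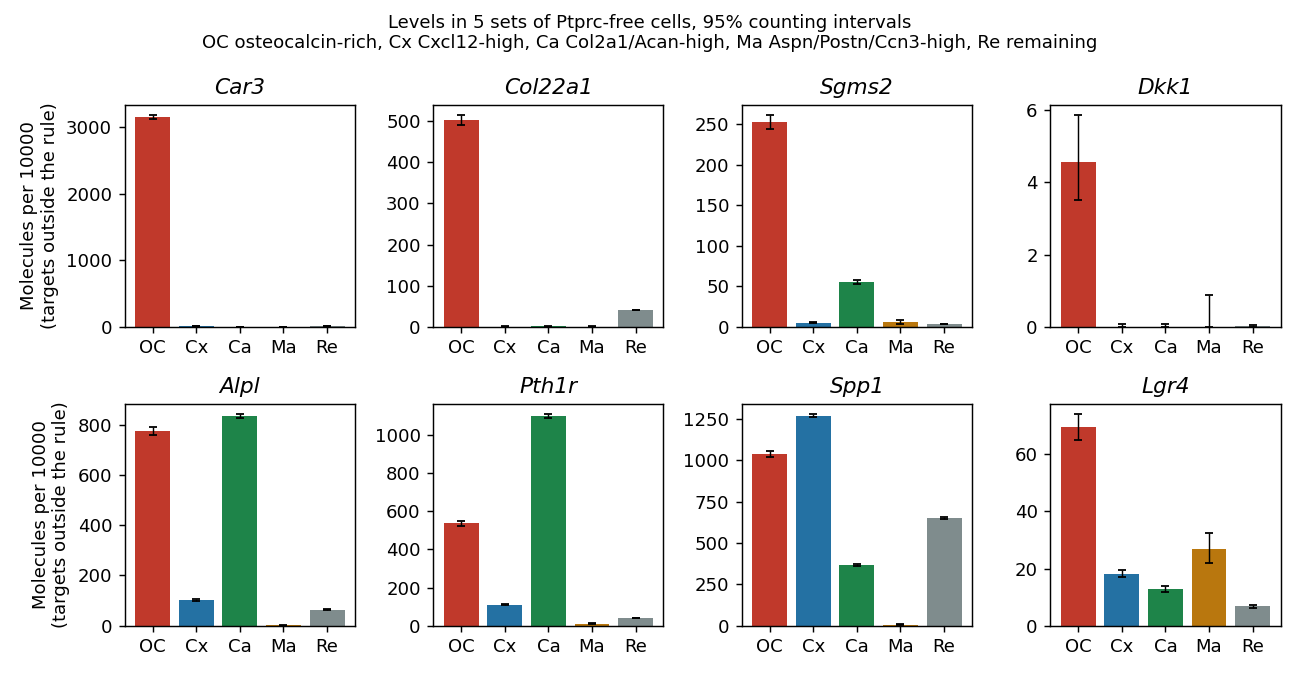
Levels of 8 targets, in molecules per 10000 of targets outside the rule, in the osteocalcin-rich cells and in 4 sets of other adult cells without Ptprc. Bars start at 0, each panel has its own scale and error bars are 95% counting intervals. Car3 and Col22a1 are highest in the osteocalcin-rich cells, whereas Pth1r (1101) is higher in the Col2a1/Acan-high cells and Spp1 (1271) in the Cxcl12-high cells. Alpl is at 776 in the osteocalcin-rich and 835 in the Col2a1/Acan-high cells, and no order is read from it.

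Wnt pathway targets were mostly detected in the members at low counts. Dkk1, the secreted inhibitor that binds LRP co-receptors, had 62 molecules in 35 members, at most 9 in a cell, and 2 molecules in 1 other cell. Its level was 4.57 (3.50 to 5.86) against 0.00879, a ratio of 520 with a counting interval from 138 to 4386, and 36.3 (20.9 to 67.4) with RSEC-adjusted molecules. The adult library held 65 Dkk1 molecules in all. Thinned, Dkk1 was found in 2.58% of members and no other cell, and whether most members lack it cannot be seen at this depth.

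Lgr4, a receptor of the R-spondins, which strengthen Wnt signals, had a median of 2 molecules in a member (0 to 20). Its level was 69.4 (65.1 to 74.0) against 10.8, a ratio of 6.43 (5.96 to 6.94), and 2.81 with RSEC-adjusted molecules. It was found in 30% of thinned members, 7.53% of other cells and 3.16% of cells with Ptprc. Of the R-spondins, Rspo4 had 881 molecules in the other cells and 0 in the members, at least 17.5-fold lower there with 3 molecules as the limit at 0. With RSEC-adjusted molecules of the same cells it had 178 molecules in the members and a ratio of 0.714, so neither the bound nor the call held there.

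Of the 15 Wnt ligands detected, 7 were compared, and 0 were at least 2-fold higher and 2 lower in the members, with a median ratio of 1.06, beside 14.3% higher and 57.1% lower of all targets. Wnt4 was the ligand with the most molecules in the members, 405 in 168 cells, at a level of 29.9 against 20.1 in the other cells and 61.1 in the Cxcl12-high cells. Its thinned share was 10.3% of members and 15.7% of other cells, against the order of the levels. Wnt5b had 191 molecules and a ratio of 1.09 (0.938 to 1.26). Wls, which carries Wnt proteins to the cell surface, was at 52.3 against 54.8, a ratio of 0.954 (0.884 to 1.03).

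Among the 8 frizzled receptors, 1 was higher in the members and 4 were lower, with a median ratio of 0.901, near the shares over all targets (14.3 and 57.1%). With RSEC-adjusted molecules 0 of the 8 were past 2-fold. Fzd5 had the most molecules, 578, and a ratio of 1.71, with thinned shares of 19.7 and 22.4% that run against it. Fzd7, with 92 molecules, had a ratio of 0.393. Fzd8, the higher one, had 21 molecules in the members, and its ratio of 2.50 became 0.865 when the share in each cell was averaged. The signal transducers had 3 higher targets and 1 lower of 8 compared, with a median ratio of 1.60, beside 14.3 and 57.1% over all targets. The higher ones were the scaffold genes Dvl1 (622 molecules, 2.32) and Apc (432 molecules, 2.16) and the kinase gene Cdk14 (123 molecules, 2.63). Their thinned shares in members and others were 21.9 and 17.4% for Dvl1, 17.7 and 11.1% for Apc, and 3.23 and 3.49% for Cdk14. With RSEC-adjusted molecules Dvl1 was at 1.66, Apc at 1.63 and Cdk14 at 2.09, so 1 of the 3 was called again. The secreted modulators had 1 higher and 3 lower of 6, the latter near the 57.1% over all targets, with Dkk3 at 13.6 against 9.15 and Dkk2 at 0 in the members. With RSEC-adjusted molecules of the same cells Dkk2 had 27 molecules in the members and a ratio of 0.623, and Dkk3 a ratio of 0.979.

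Marker lists of other cell types were mostly lower in the members, all in DBEC-adjusted molecules. All 9 endothelial targets, all 4 mural targets and all 3 cartilage targets outside the rule were at least 2-fold lower, with median ratios of 0.195, 0.0143 and 0.00389, beside 57.1% lower and a median of 0.260 over all targets. With RSEC-adjusted molecules of the same cells 0 of these 16 targets were 2-fold lower, and the median ratios were 1.14, 0.956 and 0.791. Of the 8 matricellular and elastic fibre targets 6 were lower. Mgp, an inhibitor of calcification, was at 122 against 2015 and Mmp13, a collagenase of bone and growth plate, at 20.6 against 254. With RSEC-adjusted molecules of the same cells Mgp had a ratio of 0.480 and Mmp13 one of 1.06. Col10a1, the collagen of hypertrophic cartilage, had 24 molecules in the members and 103533 in the other cells, and a ratio of 0.958 with RSEC-adjusted molecules. Matn1, Dkk2, Rspo4 and Atp6v0d2 had no DBEC-adjusted molecule in the members. With RSEC-adjusted molecules of the same cells they had 339, 27, 178 and 18, with ratios of 0.689, 0.623, 0.714 and 0.737. The other targets with the lowest ratios were the cartilage-related Epyc (2 molecules in the members), Scrg1 (1), Cilp (5) and Cytl1 (13), the contractile and pericyte genes Tagln (20) and Rgs5 (33) and the lubricin gene Prg4 (339). Of these, Prg4 was 2-fold lower also with RSEC-adjusted molecules, at 0.259.

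The osteoclast list was split, with Ctsk and Acp5 higher, Mmp9 and Atp6v0d2 lower, and a median ratio of 1.10, beside 14.3% higher and 57.1% lower over all targets. With RSEC-adjusted molecules 0 of the 4 were past 2-fold. Ctsk, a collagen-degrading protease, had 61 molecules in the members and a ratio of 3.39 (2.53 to 4.47), or 1.21 with RSEC-adjusted molecules. DBEC removed none of the 374 Ctsk molecules of the adult library, so these ratios differ through their denominators only. Thinned, Ctsk was found in 0.968% of members and 0.592% of other cells. Acp5 had 132 molecules and a ratio of 2.06, and was found in 3.87% of thinned members and 8.96% of cells with Ptprc. Of the haematopoietic list, Srgn, a proteoglycan gene of blood cells, had 1052 molecules in 54.3% of members and a ratio of 0.604. With RSEC-adjusted molecules of the same cells the Srgn ratio was 1.36, so its direction depended on the counting. Ptn, a growth factor gene of the niche list, had 60 molecules in the members and a ratio of 2.50 (1.87 to 3.28), or 1.8003 with RSEC-adjusted molecules.

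The members were not uniform over their osteocalcin share. In the 32 members under 50% osteocalcin, with a median of 325 molecules, Car3 was at 946 and found in 75%, and Col22a1 was at 122. In the 133 members between 90 and 95%, with a median of 6791 molecules, Car3 was at 3681 and Col22a1 at 537, each present in at least 99.2%. Spp1 was at 1717, 1140, 1566, 719 and 288 from the lowest to the highest bin. In the lowest it was found in 46.9% of cells, with a median share of 0, and between 50 and 80% in 85.3%, with a median of 4.85% of molecules outside the rule. Alpl was between 644 and 1125 in all 5 bins.

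Endothelial, haematopoietic, matricellular and cartilage targets outside the rule had their highest pooled levels in the low bin. Per 10000 molecules outside the rule, endothelial targets summed to 686 in the members under 50% osteocalcin and to between 7.13 and 41.4 in the other bins, and haematopoietic targets other than Ptprc to 575 and between 18.47 and 67.3. Of the 568 haematopoietic molecules in the low bin 549 were Srgn, and 1 cell held 297 of these. Some haematopoietic target was found in 59.4% of the cells of the low bin and 61.7% of those of the highest, so the pooled level does not describe most of its cells. The mural and osteoclast lists did not share this order, with mural targets at 18.2 in the low bin and 42.1 between 50 and 80%, and osteoclast targets at 7.09 in the low bin and 22.4 in the highest. Pecam1, the gene of CD31, was at 341 in the low bin and between 2.04 and 14.0 above it, and was found in 46.9% of the cells of the low bin. Whether these cells are pairs captured together was not tested. With at least 80% osteocalcin required, 262 members remained, with 13 targets higher, all of them among the 14, and 61 lower.

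**Figure D5:**
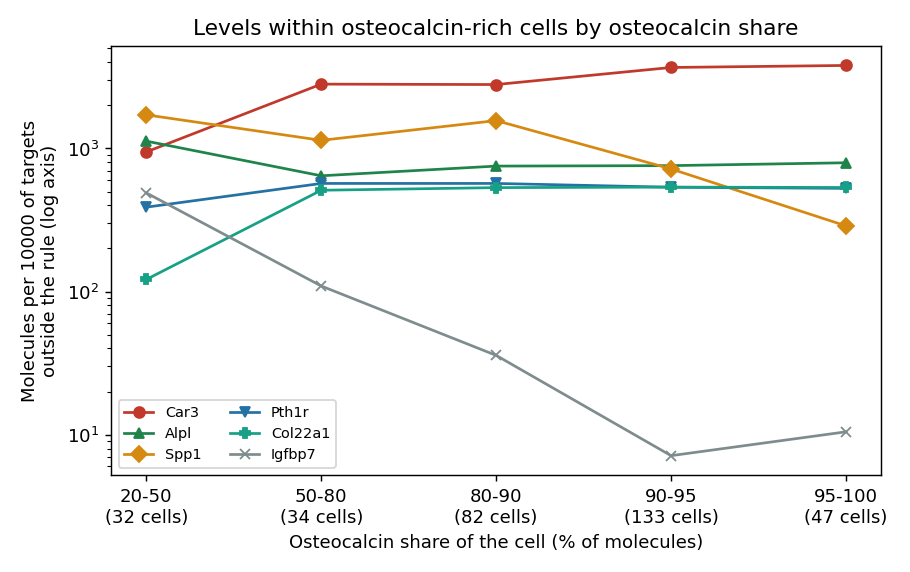
Levels of 6 targets, in molecules per 10000 of targets outside the rule on a log axis, in 5 bins of osteocalcin-rich cells by their osteocalcin share, with the number of cells in each. Car3 is at 946 in the lowest bin and 3803 in the highest, Pth1r varies less, Spp1 is at 288 in the highest bin, and Igfbp7, a target of many other cells, is at 489 in the lowest bin and 10.5 in the highest.

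The same rule found 1 cell among the 1483 cells of E18.5 BM cells with no Ptprc and at least 100 molecules, 0.0674% (0.00171 to 0.375), and 0 of 967 in E18.5 EC, which allows a share of up to 0.310% by the limit of 3 cells and 0.381% by the exact binomial interval. In Adult BM cells the share of such cells was 6.18% (5.55 to 6.86). The embryonic cell had 1918 molecules, 33.0% of them osteocalcin, with 29 of Car3, 2 of Alpl and 1015 of Spp1. Another 2 embryonic marrow cells had at least 20% osteocalcin and 1 molecule of Ptprc each, and 1 of them had 26 molecules of Car3 and 35 of Alpl.

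Per 10000 molecules, osteocalcin was at 2810 in the adult library, 11.2 in E18.5 BM cells and 2.26 in E18.5 EC. Over all cells without Ptprc and with at least 100 molecules, Car3 was at 188 in the adult, 6.62 in E18.5 BM cells and 2.70 in E18.5 EC, and Alpl at 268, 32.6 and 10.5. Spp1 was at 727, 1393 and 100. Thinned, it was found in 49.0, 8.50 and 2.48% of these cells, which runs against the levels of the 2 marrow libraries, so no order is read between them. With 1 library per stage, stage cannot be told apart from library, preparation and depth: the median cell had 242 molecules in the adult library, 96 in E18.5 BM cells and 83 in E18.5 EC, and the adult library held 6304495 molecules. Barcodes shared between libraries numbered 38 to 113 a pair.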

How the data were processed

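Cells of 3 mouse marrow libraries were profiled on the BD Rhapsody platform with a targeted panel and molecular identifiers. The authors used, per the file headers, the BD Targeted Rhapsody Analysis Pipeline 1.8 (the study's methods name an earlier release); the labels give the build mm10. The deposited files hold counts of reads and molecules per cell and amplicon, raw, RSEC-adjusted and DBEC-adjusted, with no normalization by the authors. Groups were taken from the sample titles. DBEC-adjusted molecules were summed per cell and symbol and cells with at least 20 were kept, which left out none of 4043, 12884 and 7948 in E18.5 EC, fetal marrow and adult marrow. DBEC-adjusted molecules were 21.2%, 41.6% and 35.9% of the raw ones in the EC library and the fetal and adult marrow libraries.

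Ratios of summed molecules carry exact conditional intervals, levels exact Poisson intervals and shares exact binomial (Clopper-Pearson) intervals, all at 95%. A count of 0 was given the limit of 3 counts, for molecules and for cells. Cells were thinned to 50 molecules of targets outside the rule (random seed 1), and shallower cells were left out. No doublet caller was run and no test was made, since each group was 1 library. Named targets were drawn from the 12 highest and 12 lowest ratios past 2-fold, all targets of the rule, all detected bone matrix targets and, of other lists, those with at least 50 molecules in the members; others are named as examples of a count, and 1 target past the fold is not reported here. The members and lists were chosen with earlier results of these data known, Car3 on the bone list included. The ratio and its interval were tested on simulated counts drawn from a pooled profile for each group. That simulation held no variation between cells, so it bears on counting error only. Python 3.11.15 with numpy 2.4.6, pandas 2.3.3, scipy 1.17.1 and matplotlib 3.10.9 was used, and coding sequences were read from the GENCODE annotation and transcript sequences of GRCm38. Alternatives were RSEC-adjusted and raw molecules, other floors and denominators, other summaries and left-out cells.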

Additional observations from a re-analysis of the deposited data

How the results depend on the processing

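The count of members depended most on the error correction. With RSEC-adjusted molecules the rule found 122 members and with raw molecules 94, because Ptprc had a molecule in 75.9% of the 328 members under either count, with a median of 2 molecules. With RSEC-adjusted and raw molecules 0 cells of E18.5 BM cells met the rule, with an osteocalcin floor of 10% 3 cells did, and with a floor of 80% 0 did. Other floors on osteocalcin (10 and 30%) and depth (50 and 200 molecules) gave between 311 and 381 members.

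The number of lower targets was 12 with RSEC-adjusted and 24 with raw molecules for the members found by those counts, 6 and 7 for the same cells counted so, and 92 with all molecules as denominator. The number of higher targets was 4 with all molecules as denominator, 25 without the Cxcl12-high and cartilage-gene cells, and 28 with Car3 also left out of the denominator. Thinned to 50 molecules, 12 targets were found in at least 20% of members, and thinned to 100 molecules 19 were. The last of these rests on more molecules per cell by construction; the cause of the others was not tested beyond the values given.

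Ratios past 2-fold that crossed 1 were those of Col10a1 (1.70 with RSEC-adjusted and 1.75 with raw molecules), Matn1 (1.58 and 1.799) and Epyc (1.05 with RSEC-adjusted), each for the members found by those counts. In the same cells counted with RSEC-adjusted molecules Rgs5 was at 1.16 and Mmp13 at 1.06. With all molecules as denominator Lgr4 was at 0.884, Ctsk at 0.465, Alpl at 0.449, Cdk14 at 0.362, Fzd8 and Ptn at 0.343 and Dvl1 at 0.318, and of the targets within 2-fold Pth1r was at 0.260 and Spp1 at 0.202. With an osteocalcin floor of 10% every Dkk1 molecule of the cells compared was in the members, so no ratio could be given. Fzd8 was at 0.865 as a mean of the share in each cell. Over 26 named targets and 17 settings, 235 of 441 ratios stayed within the counting interval of the ratio given above, 191 moved outside it and 15 of targets past 2-fold crossed 1. Of the settings, 6 were chosen after seeing the data: the 80% floor, the sum without Bglap3, the denominator without Car3, mean molecules per cell, and RSEC-adjusted or raw molecules of the same cells. No paired analysis was possible because each group has 1 library. Depth limits targets with few molecules, such as Dkk1 and Fzd8, and intervals cover counting error only.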
